A study of Mus musculus with 9 samples.

Results

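The genes described here are 50 mouse genes of the DNA damage checkpoint and of DNA repair, listed by symbol and looked up in the platform annotation. A gene was measured where a transcript cluster, the group of array probes for 1 transcript, carried its symbol alone, and the brightest such cluster stood for it where there were several. This held for 43 of the 50 genes, among 30050 genes measured in all, and each of the 43 had a single such cluster. Atrip, Rad51d, Rad54b and Parp1 lay in clusters annotated to several symbols, and Rbbp8, Xrcc2 and Dclre1c matched no listed cluster, so these 7 genes were not analysed here. The RNA came from HL-1, a mouse heart cell line that the labels call a cardiomyocyte line, and was hybridised to 9 Affymetrix arrays, 3 per group. The groups were cells given 0.3 µM doxorubicin with 20 ng/ml interferon gamma (DOX+IFN-γ), cells given 0.3 µM doxorubicin (DOX), and control cells given phosphate-buffered saline (Con). All were grown in serum-containing medium as 1 line, no group had interferon gamma alone, and the length of treatment is not given in the sources used here. Nothing says whether the 3 arrays of a group came from separate cultures, so p-values cover only array-to-array spread, which may be technical.

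Doxorubicin is an anthracycline that holds topoisomerase II on the DNA it has cut, which leaves double-strand breaks with protein bound to their ends. The kinases Atm and Atr sense breaks and stalled forks and act through Chek2 and Chek1 to halt the cell cycle. Breaks are then joined directly by non-homologous end joining, or copied from the sister chromatid by homologous recombination, which dividing cells use in S and G2 phase, while the Fanconi anaemia pathway clears crosslinks and protects forks. Cells of adult heart muscle hardly divide, whereas a cell line such as this does.

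Values are log2 expression, so a difference of 1 is a 2-fold change, and a gene was called where its adjusted p from limma, over all 30050 genes, was under 0.05. A level of 4.69, the 95th percentile of 1749 smell, pheromone and taste receptor genes, served as a limit under which probes were counted as dim. Array medians lay between 4.08 and 4.17. Of the heart muscle markers, 4 of 15 lay above the limit, namely Tnnt2 (7.94 ± 0.18 in Con, SD, n = 3), Mef2c (5.89 ± 0.16), Nkx2-5 (5.39 ± 0.08) and Hand2 (5.39 ± 0.06). The other 11 lay under it, among them Myh6 (4.29 ± 0.04), Myl7 (4.12 ± 0.06), Nppa (3.97 ± 0.09) and Gata4 (4.03 ± 0.07). Most markers of the labelled cell type were thus dim. A larger share of the skeletal muscle markers, 7 of 11, lay above the limit, Myog and Myod1 among them, as did 4 of 9 fibroblast markers. The identity of the cells was taken from the labels and was not tested. The highest value on the array was the same, 19.9315, on Con replicate 1, all 3 DOX arrays and DOX+IFN-γ replicates 1 and 2. Each of the 15 pairs of these arrays held 82 to 186 exactly equal values, against 1 to 17 for the other 21 pairs. This division of the arrays is uneven over the groups, and values with it as a block, and within the 6 arrays alone, stand beside the results that it changes.

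Doxorubicin-treated cells carried less RNA of many checkpoint and recombination genes than control cells, and more of a few. Of the 43 genes, 17 were called lower in DOX than in Con, 4 were called higher and 22 were not called. The genes had been listed with earlier results of these data known, so these counts describe the list and are no independent test. Over all genes, 7.53% were called lower and 8.06% higher, and the split moved to 1902 lower and 3069 higher when the arrays were quantile normalized, against 2264 lower and 2423 higher as deposited. Among the 12148 genes above the dim limit, 15.7% were lower and 17.3% higher, beside 11 lower and 3 higher of the 24 repair genes above it. The median difference was -0.15 for the 43 genes and -0.015 for all genes. All DOX arrays lay below all Con arrays in 22 of the 43 genes and above them in 6, where the shares over all genes were 17.2% and 15.7%. The called falls were between 0.18 and 1.18 in size, and 1 of the 17 reached 2-fold. Fewer cells that express a gene and less of its RNA per cell cannot be told apart in such bulk samples.

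**Figure D1:**
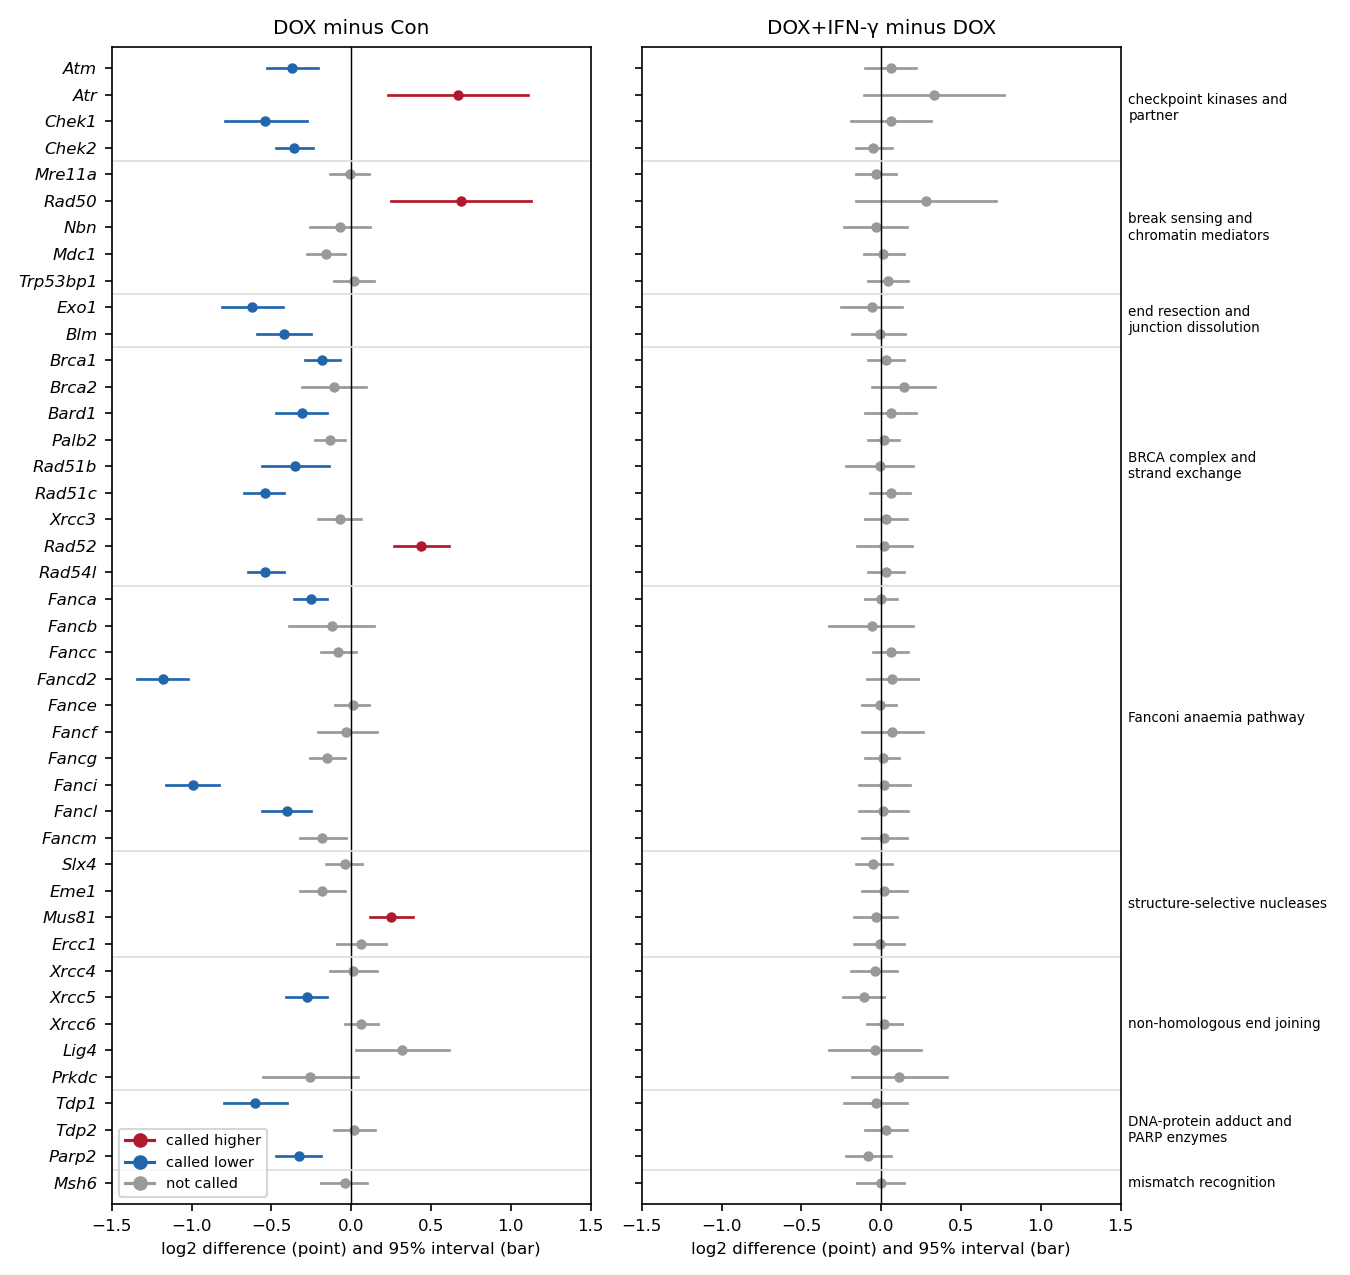
Log2 differences of the 43 measured genes, ordered by role, for DOX minus Con (left panel) and DOX+IFN-γ minus DOX (right panel), with 95% intervals from limma on 3 arrays per group. On the left 17 genes are called lower (blue) and 4 higher (red), with Fancd2 (-1.18) and Fanci (-0.99) lowest, while no gene is called on the right.

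With the array division as a block, 15 genes were called lower and 2 higher in DOX, and within the 6 arrays of the shared top value, which leave Con replicate 1 as the sole control, 12 and 2. Over all 30050 genes, 1769 were lower and 1906 higher with the block, and 1374 lower and 1083 higher within the 6 arrays. Tests within the 6 arrays assume that the lone Con array varies like the other groups. The block ended the calls of Atr, Rad50, Brca1, Rad51b and Xrcc5 and added Prkdc as lower. Within the 6 arrays the calls of Rad50, Brca1, Rad51b, Rad52, Fanca, Fancl, Mus81, Xrcc5 and Parp2 were lost, and Prkdc (lower) and Lig4 (higher) were added. Of the 17 falls, 14 stayed called in all 9 fits that left out 1 array. Of the 4 rises, 1 did so, that of Rad52. In all, 10 genes were called lower under every alternative tried with a minimum fold left aside, namely Atm, Chek1, Chek2, Exo1, Blm, Rad51c, Rad54l, Fancd2, Fanci and Tdp1.

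Promoter sequence was at hand for 37 of the 43 genes as RefSeq windows of assembly GRCm38.p6 that run from 250 bases before to 50 bases after a gene's start. The windows were searched on both strands for 3 motifs known from genes of the dividing cell, the E2F site (TTTCCCGC, TTTGGCGC, TTTCGCGC or TTTGCCGC), the CHR element (TTTGAA or TTCGAA) and the CCAAT box (CCAAT). The E2F letters stood in 8 of the 37 genes (21.6%), against 704 of 27025 genes with a window (2.6%) and 575 of 17492 protein-coding ones (3.3%). They stood in 3 of 15 genes called lower (Bard1, Chek2 and Rad51c), in 0 of 3 called higher and in 5 of 19 not called (Brca2, Fancg, Mdc1, Msh6 and Xrcc6). CHR letters stood in 5 of 37 genes (13.5%, against 21.7% of all) and CCAAT in 20 (54.1%, against 41.1%). A match of letters is a description and shows no binding. The windows of the 3 largest called falls and of the largest called rise among genes with a window are shown, the sites found being in capitals: Fanci (chr7:79392088-79392387, + strand) held none of the motifs, Tdp1 (chr12:99884268-99884567, + strand) and Atr (chr9:95857347-95857646, + strand) a CHR element, and Rad51c (chr11:87404457-87404756, - strand, 1 of 2 windows) an E2F site. None of these sites overlapped another.
Fanci: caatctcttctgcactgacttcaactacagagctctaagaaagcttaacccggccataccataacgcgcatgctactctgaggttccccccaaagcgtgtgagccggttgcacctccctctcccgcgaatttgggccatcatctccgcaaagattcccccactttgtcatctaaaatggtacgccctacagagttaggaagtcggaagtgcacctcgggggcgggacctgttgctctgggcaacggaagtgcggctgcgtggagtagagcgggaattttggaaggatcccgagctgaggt
Tdp1: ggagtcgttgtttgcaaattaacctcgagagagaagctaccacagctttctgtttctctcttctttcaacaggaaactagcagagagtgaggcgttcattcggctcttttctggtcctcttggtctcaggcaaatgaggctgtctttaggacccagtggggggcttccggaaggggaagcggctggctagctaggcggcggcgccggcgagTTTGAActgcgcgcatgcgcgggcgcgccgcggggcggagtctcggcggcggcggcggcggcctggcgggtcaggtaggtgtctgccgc
Rad51c: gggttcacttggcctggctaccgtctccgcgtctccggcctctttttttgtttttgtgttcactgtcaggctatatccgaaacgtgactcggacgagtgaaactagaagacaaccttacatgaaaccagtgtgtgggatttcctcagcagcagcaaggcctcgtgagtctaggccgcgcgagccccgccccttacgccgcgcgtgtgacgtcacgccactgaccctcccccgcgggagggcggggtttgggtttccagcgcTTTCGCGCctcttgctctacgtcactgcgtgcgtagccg
Atr: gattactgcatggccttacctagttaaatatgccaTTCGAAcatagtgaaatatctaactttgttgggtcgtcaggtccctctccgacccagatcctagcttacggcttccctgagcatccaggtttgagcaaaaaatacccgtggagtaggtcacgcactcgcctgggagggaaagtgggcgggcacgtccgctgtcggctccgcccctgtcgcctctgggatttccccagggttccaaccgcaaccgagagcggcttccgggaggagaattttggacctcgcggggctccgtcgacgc

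Of the checkpoint kinases, Chek1, Chek2 and Atm were lower in DOX than in Con and Atr was higher. Chek1, the kinase that Atr activates at damaged forks, measured 5.42, 5.34 and 5.42 in DOX, against 6.16, 5.94 and 5.67 in Con. All DOX arrays lay below all Con arrays, and the difference was -0.54 (SE 0.110, adjusted p = 0.0111, limma). Chek2, the kinase that Atm activates at breaks, measured 4.88, 4.93 and 4.87 in DOX and 5.24, 5.31 and 5.18 in Con, a difference of -0.36 (SE 0.050, adjusted p = 0.00171). Its arrays separated by group with little spread in either.

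Atm itself measured 4.39, 4.35 and 4.44 in DOX, under the dim limit, against 4.91, 4.76 and 4.64 in Con, so that its fall of -0.37 (SE 0.070, adjusted p = 0.00711) may be understated. Atr, the kinase of stalled replication forks, measured 6.04, 6.00 and 6.02 in DOX and 5.58, 5.40 and 5.07 in Con. The groups did not overlap, and the Con arrays were spread over 0.5 and the DOX arrays over less than 0.1. The rise of 0.67 (SE 0.192) lay just past the threshold (adjusted p = 0.0488, limma). That SE pools all 3 groups, of which DOX+IFN-γ was spread most (SD 0.39). With the array division as a block the rise was 0.33 (adjusted p = 0.150), and within the 6 arrays 0.44. The call was lost without Con replicates 2 or 3, any single DOX array, or DOX+IFN-γ replicates 1 or 2 (adjusted p up to 0.131). It was also lost with all clusters (adjusted p = 0.0834) and with a trended robust prior (0.0502). It held with only DOX and Con compared (adjusted p = 0.0182) and without DOX+IFN-γ replicate 3 (0.00809).

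**Figure D2:**
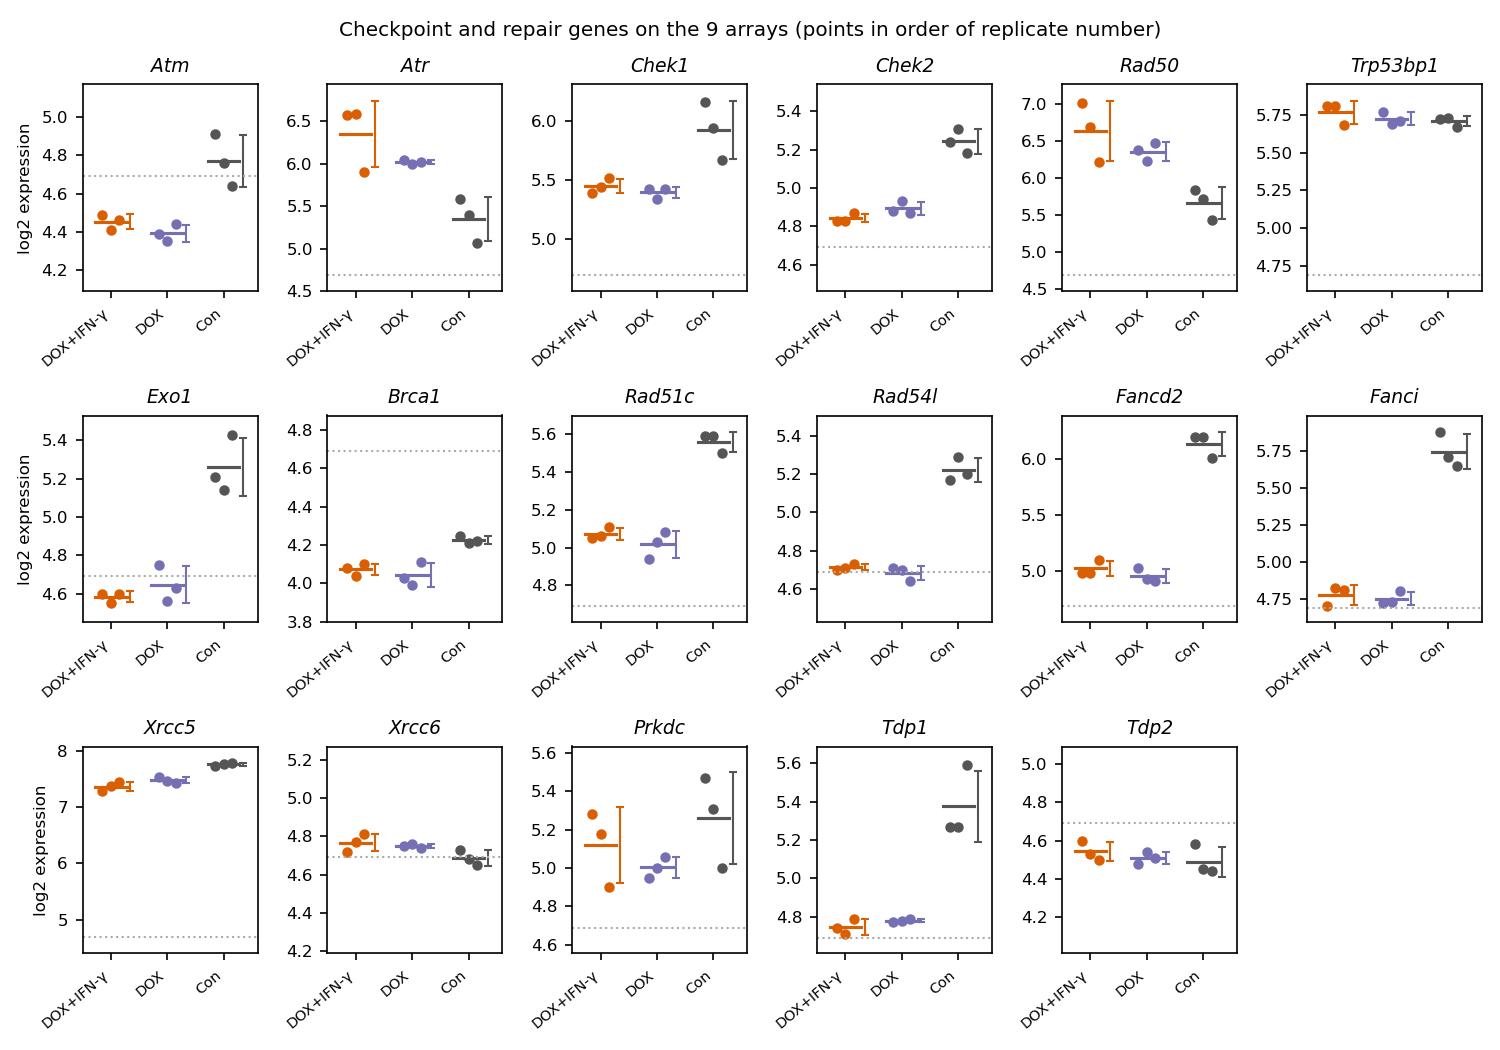
Log2 expression on each array (points, in order of replicate number) of 17 checkpoint and repair genes in DOX+IFN-γ, DOX and Con cells, with group means (lines) and SD (bars, n = 3), each panel on its own scale, and the dim limit of 4.69 dotted. Fancd2 lies between 4.91 and 5.10 on all 6 treated arrays and between 6.01 and 6.20 in Con, while Atr and Rad50 lie lowest in Con.

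The genes that sense breaks and mark the chromatin around them were mostly not called, with Rad50 as the exception. Mre11a, Rad50 and Nbn form the complex that binds broken ends and activates Atm. Rad50 measured 6.37, 6.22 and 6.47 in DOX and 5.84, 5.71 and 5.43 in Con, without overlap, and rose by 0.69 (SE 0.192, adjusted p = 0.0428). The call was lost with the block (0.39, adjusted p = 0.191) and with all clusters (adjusted p = 0.0734). It was also lost without any single Con or DOX array or DOX+IFN-γ replicate 2 (adjusted p up to 0.126). Within the 6 arrays the rise was 0.51. The call of Rad50 held with only DOX and Con compared (adjusted p = 0.0133) and without DOX+IFN-γ replicates 1 (0.0195) or 3 (0.0114). Its partners Mre11a (-0.01, 95% interval -0.13 to 0.11) and Nbn (-0.07, -0.26 to 0.12) were not called.

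Mdc1, the mediator that binds marked histone at breaks, was not called at -0.16 (adjusted p = 0.0893), although its DOX arrays all lay below its Con arrays. Trp53bp1, which shields broken ends and favours end joining, measured 5.77, 5.69 and 5.71 in DOX, against 5.72, 5.73 and 5.67 in Con. The groups overlapped, and the difference of 0.02 had a 95% interval from -0.11 to 0.14.

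Both measured genes of end resection and junction dissolution were lower in DOX, beside 7.53% of all genes. Exo1, a nuclease that trims broken ends to single strands, measured 4.75, 4.56 and 4.63 in DOX, near the dim limit, and 5.21, 5.14 and 5.43 in Con. It fell by 0.62 (SE 0.083, adjusted p = 0.00128), a 1.53-fold lower level. Blm, the helicase that takes apart crossed-over DNA, lay between 4.74 and 4.77 in DOX, against 5.0 to 5.30 in Con, and fell by 0.42 (SE 0.073, adjusted p = 0.00513). In neither gene did the arrays of the 2 groups overlap.

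Of 9 measured genes of the BRCA complex and strand exchange, 5 were lower in DOX (55.6%), 1 was higher (11.1%) and 3 were not called. Over all genes, 7.53% were lower and 8.06% higher. The median difference of the 9 was -0.18. On average over the 9 arrays, 3 of them lay above the dim limit, namely Rad51c, Rad54l and Brca2. The called Bard1, Rad51b and Rad52 lay under it, as did Brca1. Rad51c, a paralog of the strand exchange recombinase, measured 4.94, 5.03 and 5.08 in DOX and 5.59, 5.59 and 5.50 in Con. It fell by 0.54 (SE 0.055, adjusted p = 0.000292, limma). Rad54l, a motor protein that helps the recombinase pair strands, measured 4.71, 4.70 and 4.64 in DOX, against 5.17, 5.29 and 5.20 in Con. It fell by 0.54 as well (SE 0.050, adjusted p = 0.000178), and in both genes the groups stood well apart.

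Brca1, the ubiquitin ligase that steers breaks towards recombination, was dim throughout, at 4.03, 3.99 and 4.11 in DOX and 4.25, 4.21 and 4.22 in Con. Its difference of -0.18 (SE 0.048, adjusted p = 0.0345) was lost with the block (adjusted p = 0.113), within the 6 arrays (0.200) and without any single array other than DOX replicate 3 (adjusted p up to 0.120). Its partner Bard1 fell by 0.31 (adjusted p = 0.0184), which was lost without Con replicates 1 or 3 or DOX replicates 1 or 2 (adjusted p up to 0.0679). Rad51b, another paralog, fell by 0.35 (adjusted p = 0.0316), lost with the block (-0.35, adjusted p = 0.114), within the 6 arrays (adjusted p = 0.104) and without Con replicates 1 or 2, any single DOX array or DOX+IFN-γ replicate 2 (adjusted p up to 0.115).

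Rad52, which anneals complementary single strands, moved the other way, with 4.93, 4.81 and 4.70 in DOX and 4.45, 4.26 and 4.40 in Con. It rose by 0.44 (SE 0.075, adjusted p = 0.00444), a call lost within the 6 arrays (0.36, adjusted p = 0.121), where Con replicate 1 is the sole control. Brca2, the loader of the recombinase, differed by -0.11 (95% interval -0.31 to 0.09). Palb2, its link to Brca1, differed by -0.13 (adjusted p = 0.0731) and Xrcc3 by -0.07, and none of these 3 was called.

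The Fanconi anaemia pathway held the 2 largest falls among the 43 genes, those of the paired proteins that its core complex marks with ubiquitin. Fancd2 measured 5.03, 4.93 and 4.91 in DOX, against 6.20, 6.20 and 6.01 in Con. The groups were far apart relative to the spread within them, and Fancd2 was 2.26-fold lower (log2 difference -1.18, SE 0.069, adjusted p = 2.18e-05), the 230th lowest difference among 30050 genes. Fanci, its partner, measured 4.72, 4.73 and 4.80 in DOX and 5.88, 5.71 and 5.65 in Con. It was 1.99-fold lower (-0.99, SE 0.070, adjusted p = 4.39e-05), with DOX values close to the dim limit, so that its fall may be understated.

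Of the 8 genes of the core complex and its anchor, 2 were called lower, beside 7.53% of all genes. Fancl, the ubiquitin ligase subunit, fell by 0.40 (SE 0.069, adjusted p = 0.00434) and Fanca by 0.25 (SE 0.044, adjusted p = 0.00509). Both calls were lost within the 6 arrays alone (adjusted p = 0.101 and 0.0921). Fancb (-0.12), Fancc (-0.08), Fance (0.01), Fancf (-0.03), Fancg (-0.15) and Fancm (-0.18) were not called, and all 6 of them were dim, with means over the 9 arrays from 3.96 to 4.45. The called Fancl (4.37 in DOX and 4.77 in Con) and Fanca (4.11 and 4.36) also lay under the dim limit on average over the 9 arrays. Changes of such dim genes can be understated by the array summary.

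**Figure D3:**
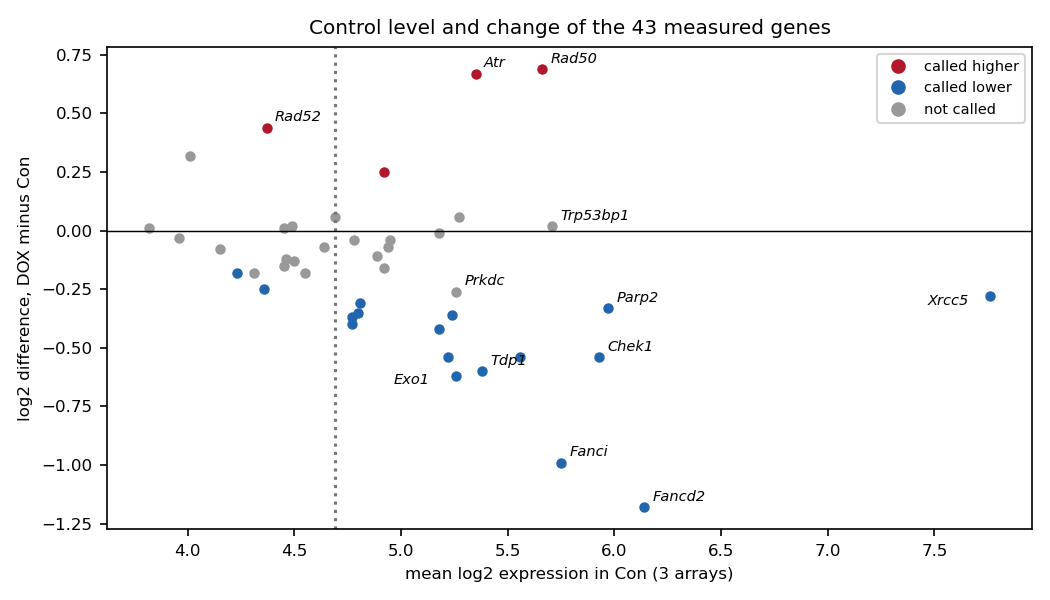
Mean log2 expression in Con (x axis, 3 arrays) and log2 difference DOX minus Con (y axis) of the 43 measured genes, coloured by call, with the dim limit of 4.69 dotted. The largest falls, Fancd2 (6.14 in Con) and Fanci (5.75), and the rises of Atr and Rad50 lie right of the limit, and Xrcc5 is the brightest gene at 7.76.

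Of the nucleases that cut branched DNA, Mus81 was called higher, by 0.25 (SE 0.058, adjusted p = 0.0189). The call was lost within the 6 arrays (adjusted p = 0.167) and without Con replicates 1 or 2 or DOX replicates 1 or 2 (adjusted p up to 0.0655). Its partner subunit Eme1 (-0.18, adjusted p = 0.0885), the scaffold Slx4 (-0.04) and Ercc1 (0.06), a subunit of the nuclease that cuts beside crosslinks, were not called. Msh6, which recognises mismatched bases, differed by -0.04 (95% interval -0.19 to 0.10).

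Of 5 non-homologous end joining genes, 1 was called lower (20.0%) and 0 higher, beside 7.53% lower and 8.06% higher of all genes. Xrcc5, the larger subunit of the Ku ring that binds broken ends, measured 7.54, 7.47 and 7.43 in DOX and 7.73, 7.77 and 7.78 in Con. It fell by 0.28 (SE 0.057, adjusted p = 0.0114) without overlap of the groups, a call lost with the block (-0.22, adjusted p = 0.0717) and within the 6 arrays (-0.24, adjusted p = 0.163). Xrcc6, the other Ku subunit, measured 4.75, 4.76 and 4.74 in DOX, against 4.73, 4.68 and 4.65 in Con. Its difference of 0.06 was not called (95% interval -0.04 to 0.17). All of these values lay close to the dim limit, so that a change may be understated.

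Prkdc, the kinase that Ku recruits, measured 4.95, 5.0 and 5.06 in DOX and 5.47, 5.31 and 5.0 in Con. Con replicate 3 lay among the DOX arrays, and the difference of -0.26 was not called (adjusted p = 0.257). With the block it was -0.47 (adjusted p = 0.0247) and within the 6 arrays -0.46 (adjusted p = 0.0332). Lig4, the ligase of this route, measured 4.30, 4.34 and 4.36 in DOX and 3.73, 4.03 and 4.28 in Con, and its difference of 0.32 was not called (adjusted p = 0.140). It was called without Con replicate 3 (adjusted p = 0.0218). Within the 6 arrays, whose lone Con array is the lowest of the 3 for this gene, it was 0.61 (adjusted p = 0.0134). Xrcc4, the partner of Lig4, was the dimmest of the 43 genes and differed by 0.01.

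Of the enzymes that clear proteins from DNA ends and of the PARP family, 2 of 3 were called lower, beside 7.53% of all genes. Tdp1, which frees 3′ ends from trapped topoisomerase I, measured 4.77, 4.78 and 4.79 in DOX, against 5.27, 5.27 and 5.59 in Con. It fell by 0.60 (SE 0.086, adjusted p = 0.00183), a 1.51-fold lower level that was close to the dim limit. Tdp2, which frees 5′ ends from trapped topoisomerase II, the lesion that doxorubicin leaves, measured 4.48, 4.54 and 4.51 in DOX and 4.58, 4.45 and 4.44 in Con. Its groups overlapped below the dim limit, with a difference of 0.02 (95% interval -0.11 to 0.15). Parp2, a sensor of strand breaks, fell by 0.33 (SE 0.061, adjusted p = 0.00652), lost within the 6 arrays (-0.27, adjusted p = 0.144).

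Among the 22 genes not called, the 95% interval lay within 0.5 of no change on the log2 scale in 20, the exceptions being Lig4 and Prkdc. In 5 of the 22 (Mdc1, Palb2, Fancg, Fancm and Eme1) all DOX arrays lay below all Con arrays, and in Xrcc6 and Lig4 above them. Over all genes, called or not, the shares were 17.2% below and 15.7% above.

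None of the 43 genes was called different between cells given both agents and cells given doxorubicin alone. The shares called over all genes were 0.00% higher and 0.00% lower by limma. At an unadjusted p under 0.05 there were 0 of the 43 genes and 1503 of all 30050 (5.0%). The differences reached 0.33 in size, and the 95% interval lay within 0.5 of no change in 41 of 43 genes. All DOX+IFN-γ arrays lay above all DOX arrays in 3 genes, Brca2 (0.14), Bard1 (0.06) and Fancc (0.06), and below them in 0, where the shares over all genes were 4.56% and 6.69%.

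The exceptions to those narrow intervals were Atr and Rad50, whose DOX+IFN-γ arrays were spread widely. Atr measured 6.57, 6.58 and 5.90 in DOX+IFN-γ, against 6.04, 6.00 and 6.02 in DOX, a difference of 0.33 with a 95% interval from -0.11 to 0.77. Rad50 measured 7.01, 6.68 and 6.21 in DOX+IFN-γ, against 6.37, 6.22 and 6.47 in DOX, a difference of 0.28 (-0.16 to 0.72). In both genes DOX+IFN-γ replicate 3 lay lowest of its group, as did Con replicate 3. Prkdc shared this order, with 5.28, 5.18 and 4.90 in DOX+IFN-γ and 5.47, 5.31 and 5.0 in Con. In all, 11 of the 43 genes were lowest in replicate 3 of both groups. The share over all genes was not counted, so this order cannot be called particular to these genes. Con replicate 3 was the lowest of its group in 24 of the 43, and DOX+IFN-γ replicate 3 in 15. Neither of these 2 arrays holds the shared top value, nor does Con replicate 2. The part of that value in the order was not tested.

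Cells given both agents also differed from control cells, in the comparison that shares its Con arrays with DOX minus Con. Of the 43 genes, 16 were called lower and 4 higher, against 9.41% and 8.01% of all genes (2827 lower and 2407 higher, or 2273 and 3075 with quantile normalization). The arrays did not overlap in 23 genes below and 4 above, against 18.5% and 14.5% of all genes. All 20 called genes were also called in the same direction in DOX minus Con, and Brca1 was called there but not here (-0.15, adjusted p = 0.0665). Some of these calls were not stable. Of the 16 falls, 12 stayed called in all 9 fits that left out 1 array, as did 3 of the 4 rises. Bard1 stayed called in 1 of these fits, Mus81 in 2, Rad51b and Chek1 in 6 and Atm in 8. Within the 6 arrays of the shared top value, which leave 2 DOX+IFN-γ arrays and 1 Con array, 10 were lower and 3 higher, against 1376 lower and 858 higher of all genes.

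Fancd2 measured 4.99, 4.99 and 5.10 in DOX+IFN-γ (-1.11 against Con, SE 0.069, adjusted p = 2.73e-05) and Fanci 4.70, 4.82 and 4.81 (-0.97, SE 0.070, adjusted p = 4.90e-05). Exo1 measured 4.60, 4.55 and 4.60 (-0.68, adjusted p = 0.000730) and Tdp1 4.74, 4.71 and 4.79 (-0.63, adjusted p = 0.00129). Against DOX, these 4 genes differed by 0.07 (95% interval -0.09 to 0.23), 0.02 (-0.14 to 0.18), -0.06 (-0.25 to 0.13) and -0.03 (-0.23 to 0.16) in the same order. Chek1 measured 5.39, 5.44 and 5.51 (-0.48, adjusted p = 0.0179), and its call was lost without Con replicate 2 or DOX+IFN-γ replicates 1 or 2 (adjusted p up to 0.0616). Atr was 1.00 higher than in Con (SE 0.192, adjusted p = 0.00760) and Rad50 0.98 higher (SE 0.192, adjusted p = 0.00855), and both kept this call under every alternative.

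Further genes of the same pathways were read from lists of other checkpoint and repair genes. Their counts stand beside 7.53% lower and 8.06% higher of all genes in DOX minus Con. Of 15 other checkpoint genes, 6 were lower and 3 higher in DOX, among them Wee1, the kinase that restrains entry into mitosis (-1.26, SE 0.070, adjusted p = 1.73e-05), H2afx, the histone marked at breaks (-0.62), Clspn, the adaptor between Atr and Chek1 (-0.56), and Rad9a, a subunit of the checkpoint clamp (0.81, SE 0.133, adjusted p = 0.00361). Of 19 other recombination and crosslink genes, 6 were lower (31.6%) and 1 higher (5.26%), the latter below the share of all genes. Ube2t, the enzyme that passes ubiquitin to Fancd2 together with Fancl, fell by 0.91 (SE 0.042, adjusted p = 9.05e-06), the nuclease Gen1 by 0.72 and the helicase Brip1 by 0.45.

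The remaining lists were small, and their counts stand beside 7.53% lower and 8.06% higher of all genes. Of 11 translesion and damage tolerance genes, 2 were higher and 1 lower, with the polymerase Polh, which copies past damaged bases, up by 2.13 (SE 0.146, adjusted p = 3.78e-05), its partner Rev1 up by 0.87, and Usp1, which removes ubiquitin from Fancd2, down by 0.88. Of 9 other end joining and single-strand break genes, 4 were higher and 1 lower, among them Xrcc1, the scaffold of single-strand break repair (1.01, SE 0.087, adjusted p = 0.000124), and Parg, which removes poly(ADP-ribose) (0.60). Of 17 nucleotide excision genes, 2 were higher (11.8%) and 1 lower (5.88%), near the shares of all genes, with Gtf2h1, a subunit of the helicase complex, up by 1.07 (SE 0.112, adjusted p = 0.000364). Of 12 base excision genes, 4 were lower and 2 higher, and of 4 other mismatch repair genes 2 were lower, all 8 of these changes being 0.40 or less in size.

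**Figure D4:**
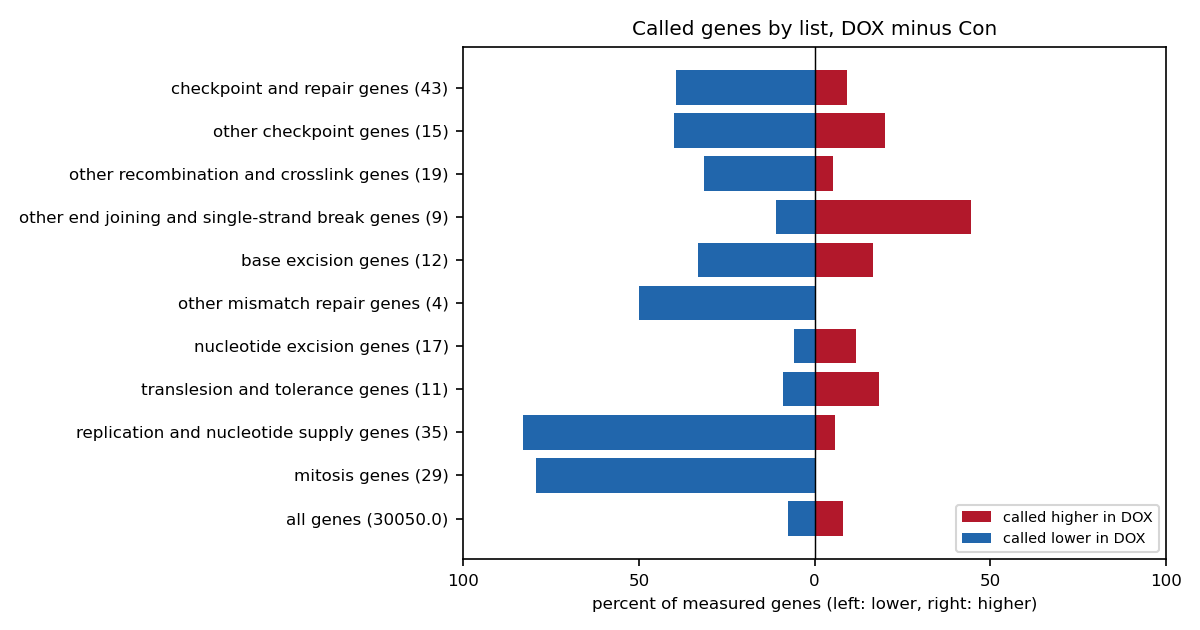
Percent of measured genes called lower (blue, left of 0) and higher (red, right of 0) in DOX minus Con in each list, with the number of genes in brackets. The 43 checkpoint and repair genes stand at 39.5% lower and 9.30% higher, against 7.53% and 8.06% of all genes, 82.9% and 5.71% of replication and nucleotide supply genes, and 79.3% and 0.00% of mitosis genes.

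Genes of DNA replication and of mitosis fell in the same arrays. Of 35 replication and nucleotide supply genes 29 were called lower and 2 higher, with a median difference of -0.51, and of 29 mitosis genes 23 were called lower, with a median of -0.68, beside -0.15 for the 43 checkpoint and repair genes. The mean log2 level of the replication list lay between 5.30 and 5.36 on the DOX arrays and between 6.12 and 6.13 on the Con arrays, and that of the mitosis list between 5.28 and 5.34 on the DOX arrays and between 5.97 and 6.15 on the Con arrays. The part of these changes in those of the repair genes was not tested. Of the 11 skeletal muscle markers 4 were lower and 2 higher, with a median difference of -0.06: Myog (-3.42), Acta1 (-0.70), Tnnt3 (-0.55) and Myh3 (-0.40) fell, and Myod1 (0.76) and Myh1 (0.56) rose. Their mean level lay between 5.17 and 5.26 on the DOX arrays and between 5.51 and 5.63 on the Con arrays. Of the 15 heart muscle markers, Tnnt2 (-1.24, adjusted p = 5.32e-05) and Hand2 (-0.35, adjusted p = 0.0223) were lower and none was higher, and their mean lay between 4.57 and 4.64 in DOX and between 4.70 and 4.72 in Con. Of the 9 fibroblast markers, Col1a1 (-1.13), Col1a2 (-1.03), Col3a1 (-1.87) and Lum (-0.38) fell and Thy1 (0.21) rose, while Postn differed by 0.42 without a call (adjusted p = 0.165). Their median difference was -0.13, and their mean level was 7.28 on every DOX array and 7.61 to 7.77 in Con. The 7 endothelial markers all lay under the dim limit. The part of these markers in the changes of the repair genes was not tested.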

How the data were processed

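RNA of HL-1 cells was measured on 9 Affymetrix mouse transcript arrays. The authors deposited log2 expression values per transcript cluster, made with RMA, per the submitters' processing notes; its version and settings, the build and the array annotation are not given in the sources used here. That these are log2 values was read from their range (2.29 to 19.9), since the table states neither scale nor centring. RMA corrects background, normalizes between arrays and summarizes probes, and it compresses differences of dim probes.

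The table held 65527 clusters, of which 30376 carried 1 symbol, 2117 several and 33034 none, repeats of a symbol within a cluster counted once. Group means of all 9 arrays were fitted with limma 3.58.1 (lmFit, eBayes) in R 4.3.3, with 6 residual and 2.41 prior degrees of freedom. P-values were two-sided and adjusted by Benjamini-Hochberg over 30050 genes, with no filter on dim genes. Precision is limited by the 3 arrays per group, with a median 95% half-width of 0.19 over all genes. The procedure was tested on simulated data.

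Members and lists were chosen with earlier results of these data known, as were the tests. Per-array values are given for members called against Con with a log2 difference of at least 0.5 in size and for a fixed set of 12 genes, of which Parp1 was not analysed; other lists are named by up to 4 called genes of largest size. Motifs were matched as exact letters in RefSeq windows; 4 genes had several windows and counted once. Alternatives were quantile normalization, leaving out dim genes, only the compared groups, a trended robust prior, a replicate block, all clusters, the mean of a gene's clusters, the array division, a minimum fold and leaving out each array.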

Additional observations from a re-analysis of the deposited data

How the results depend on the processing

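The 17 falls in DOX minus Con became 7 with a minimum log2 difference of 0.5, and the 4 rises became 2. The 4 rises also became 2 with the array division as a block, 2 within the 6 arrays of the shared top value and 1 when all 65527 clusters were tested. In DOX+IFN-γ minus Con, the 16 falls became 10 within those 6 arrays and 5 with the minimum difference, and the 4 rises became 2 with it. Fits that left out 1 array called 14 to 16 genes lower and 1 to 4 higher in DOX minus Con, 12 to 15 lower and 3 to 4 higher in DOX+IFN-γ minus Con, and 0 in DOX+IFN-γ minus DOX. The fewest rises, 1, came without Con replicate 2, DOX replicate 1 or DOX replicate 2, and 2 were left without Con replicate 1, DOX replicate 3 or DOX+IFN-γ replicate 2. The cause was not tested. The remaining settings moved no count by over 1.5 times, and no called difference of a gene with per-array values changed sign. The within-array setting was chosen after seeing the data.

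With the replicate block, 16 genes were called lower and 4 higher in DOX minus Con, 15 lower and 3 higher in DOX+IFN-γ minus Con, and 0 in DOX+IFN-γ minus DOX. Same-numbered arrays of different groups had deviations from their group means that correlated between -0.16 and 0.36 over genes, above 0.1 in 3 of 9 pairs, so the numbers were not taken as pairs. Signal is a further limit, as 19 of the 43 genes lay at or under 4.69 on average.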
